A study of Mus musculus with 19 samples.

Results

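The genes described here are 39 genes of protein folding in the endoplasmic reticulum (ER) and of the unfolded protein response, chosen by name for their known roles. For each, among probe sets mapped to that symbol alone, the brightest by its mean across the 19 arrays was taken. Of the 39, 38 passed the filter on dim probe sets and were tested among 10733 genes; Derl3, a derlin of the degradation machinery, was listed at the floor of 2.19 in every mouse and was not tested. They fall into 15 lumenal chaperones and folding enzymes, 7 genes of ER-associated degradation, 4 stress sensors with their factors, 6 genes of the ATF4 arm, 5 genes of the translocation channel and 2 CREB3L transcription factors.

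Left-ventricle RNA of male C57BL/6 mice was hybridised to Affymetrix expression arrays, 1 array per mouse, with no pooling. Surgery was at 7 weeks of age, with collection of the ventricle 4 weeks after it. The mice form 3 groups: 7 with a banded aorta and heart failure (HF mice), 7 with a banded aorta and no heart failure (noHF mice) and 5 sham-operated mice; the labels carry no genotype or drug, and do not give the criterion for heart failure. The labelled index of lung weight over tibia length, a measure of lung congestion, averaged 20.4 ± 2.18 in HF mice, 9.10 ± 0.800 in noHF mice and 8.59 ± 0.493 in sham mice (SD). Values are log2 signals; differences are log2 changes of group means, and a gene is said to have risen or fallen only where its limma p, adjusted over all genes, was below 0.05.

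Some facts of the arrays touch every comparison. The signal of the 18S ribosomal control probe set split the arrays into a low set of 7 HF, 4 noHF and 2 sham arrays (sham mice 4 and 5) and a high set of 0 HF, 3 noHF and 3 sham arrays, so values within the low set are given where they change a call. All 6 arrays of the high set are of mice in 1 of the 3 series of animal IDs in the labels, and that series has no noHF or sham mouse in the low set, so between these groups the 18S set and the ID series cannot be told apart; 2 HF mice of that series are in the low set. The difference between the 3′ and 5′ actin control probe sets, a sign of RNA or labelling quality, was 0.661 to 0.905 in HF mice and 0.672 to 0.898 in noHF mice, below the 0.943 to 1.02 of sham mice, so it and banding largely cannot be told apart. Of 12 fibroblast markers 11 rose in HF mice and 8 in noHF mice against sham, and 8 rose in HF against noHF mice. Called shares were 91.7%, 66.7% and 66.7%, beside 39.3%, 17.4% and 9.48% of all genes in these 3 comparisons. The fibroblast markers' summed log2 signal was 141 to 147 in HF, 130 to 140 in noHF and 122 to 132 in sham mice. Of 12 cardiomyocyte markers, which all passed the filter as the labelled tissue requires, 5 fell in HF mice and 0 in noHF mice against sham. The cardiomyocyte shares called, 41.7% and 0%, were near the 39.3% of all genes in HF mice and below the 17.4% in noHF mice. In these whole-tissue samples fewer cells of a type and less RNA per cell cannot be told apart.

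The ER lumen folds secreted and membrane proteins with chaperones such as the HSP70 protein BiP (Hspa5), the HSP90 protein GRP94 (Hsp90b1) and the lectins calreticulin and calnexin. When unfolded protein builds up, the membrane sensors IRE1 (Ern1), ATF6 and PERK (Eif2ak3) respond: IRE1 splices the Xbp1 transcript, ATF6 is cleaved to a transcription factor, and PERK phosphorylates the translation factor eIF2α, which slows most translation while favouring that of ATF4. XBP1 and ATF6 are known to induce chaperone and degradation genes through ER stress response elements, and ATF4 induces amino acid and stress genes through C/EBP-ATF response elements. Other eIF2α kinases also act on ATF4 without stress in the ER, as part of the integrated stress response. In heart muscle ATF6 and XBP1 are known as protective factors, and the sarcoplasmic reticulum that stores calcium for contraction is a form of ER.

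The promoter windows show which members carry the 2 kinds of element. RefSeq windows of 250 bases before to 50 after the gene start (GRCm38.p6) were given for 32 of the 39 members. The ER stress response element was searched on both strands as CCAAT and CCACG with 9 bases between them. It was found in 9 of the 32 members, 7 of them among the 13 folding members with a window, whereas 37 of all 27025 genes with a window (0.137%) hold it. The elements of 6 folding members are shown because their transcripts are described below and did not all change alike; capitals mark the CCAAT and CCACG boxes, or ATTGG and CGTGG where the element lies on the other strand.
Hspa5, chr2:34772011-34772057, plus strand: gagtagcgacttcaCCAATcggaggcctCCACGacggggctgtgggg
Calr, chr8:84847061-84847107, minus strand: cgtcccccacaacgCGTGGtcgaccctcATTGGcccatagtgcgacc
Canx, chr11:50325786-50325832, minus strand: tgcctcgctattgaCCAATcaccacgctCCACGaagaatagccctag
Dnajc3, chr14:118937813-118937859, plus strand: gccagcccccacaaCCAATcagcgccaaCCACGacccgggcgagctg
Creld2, chr15:88819506-88819552, plus strand: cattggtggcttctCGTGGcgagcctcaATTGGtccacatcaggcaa
Pdia6, chr12:17266477-17266523, plus strand: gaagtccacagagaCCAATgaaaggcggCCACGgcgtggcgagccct

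Hsp90b1 holds 2 such elements, and Syvn1 and Derl3, of the degradation machinery, hold 1 each. A second form, ATTGG and CCACG with 1 base between them, was found upstream of Herpud1 and inside the Dnajb11 window downstream of its start, and in 12 of 27025 genes (0.0444%). The core of the ATF4 element, TGATGNAA on either strand, was present in 3 of the 6 ATF4 members (Asns, Chac1 and Trib3) and in Herpud1, against 4.51% of all genes. In Trib3 it lies after the gene start. The stretches upstream of Asns, which rose in both banded groups, and of Chac1, which did not pass the test in either, are shown with that core in capitals.
Asns, chr6:7693211-7693246, minus strand: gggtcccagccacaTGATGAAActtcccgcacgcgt
Chac1, chr2:119351035-119351070, plus strand: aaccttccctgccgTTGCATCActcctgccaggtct

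The XBP1 element core TGACGTGG was in 0 of 32 members and 0.714% of genes. A match is a run of letters and not a site shown to be bound. Of the 37 genes with an ER stress response element 14 were tested, 8 of them members, so the counts mostly repeat the members' own calls. Of the 14, 1 rose and 3 fell in HF mice, and 0 rose and 4 fell in noHF mice against sham. Among the 6 that are no members, 0 rose and 2 fell in HF mice, and 0 rose and 1 fell in noHF mice. Of all genes 39.3% were called in HF mice and 17.4% in noHF mice.

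In HF mice against sham, 12 of the 38 tested members rose and 7 fell; of all 10733 genes 20.4% rose and 18.9% fell (39.3% in all). In noHF mice against sham 5 rose and 7 fell, against 10.8% and 6.53% of all genes (17.4% in all). Between HF and noHF mice 3 rose (Atf4, Creb3l2 and Sec61a1) and 0 fell, against 3.83% and 5.65% (9.48% in all). The members' median log2 change was 0.04, -0.05 and 0.12 in these 3 comparisons, beside 0.01, 0.02 and -0.01 over all genes. Both comparisons with sham use the same 5 sham mice. The scaling of the arrays bears on these splits: with the values quantile normalized again 10 members rose and 9 fell in HF mice (1794 and 2586 of all genes, against 2193 and 2027 as deposited), and with equal array medians 11 rose and 10 fell (1689 and 2763). In noHF mice the same scalings gave 5 and 8 members (902 and 926 of all genes, against 1164 and 701) and 4 and 8 (862 and 1051). The plot of every member by arm shows the changes by role.

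**Figure D1:**
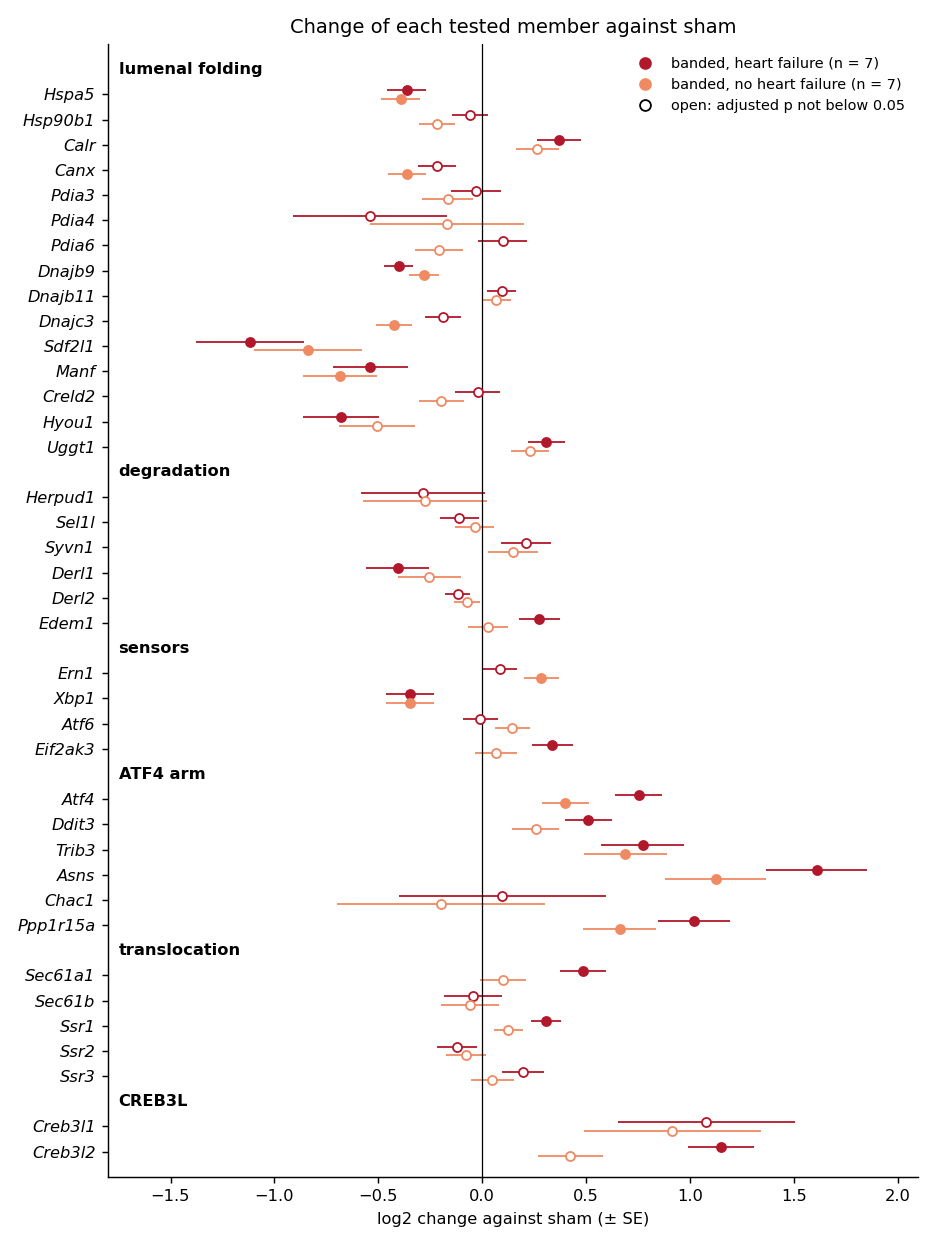
Log2 change against sham (x axis, ± SE) of the 38 tested members, grouped by role; filled points passed an adjusted p of 0.05, open points did not, in HF mice (dark red, n = 7) and noHF mice (orange, n = 7). ATF4 arm members other than Chac1 lie right of 0 in both groups, and Sdf2l1, Hyou1, Manf, Dnajb9 and Hspa5 lie left of 0.

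The ATF4 arm held the members with the highest share of rises. Against sham 5 of 6 rose in HF mice and 4 of 6 in noHF mice, beside 20.4% and 10.8% of all genes. The median log2 change was 0.76 and 0.53. Atf4 itself rose in both groups and was higher in HF than in noHF mice. Atf4 signal ran from 10.18 over a median of 10.39 up to 10.60 in HF mice and from 9.65 over 10.13 up to 10.34 in noHF mice. Atf4 in sham mice 1 to 5 was 9.55, 9.39, 9.53, 9.85 and 9.83. Every HF value was above every sham value, whereas the noHF values overlapped both. The log2 change was 0.75 ± 0.11 (SE, adjusted p = 4.9e-05) in HF mice and 0.40 ± 0.11 (SE, adjusted p = 0.0218) in noHF mice against sham, and 0.35 ± 0.10 (SE, adjusted p = 0.0395) between HF and noHF mice. The HF rise over sham kept its call within the low 18S set (0.54, adjusted p = 0.00402). The noHF call was lost without sham mouse 1, 2 or 3 (highest adjusted p = 0.0722), and the HF against noHF call without noHF mouse 5, 6 or 7 or HF mouse 1, 2, 4, 5 or 7 (highest adjusted p = 0.0952). Atf4 lost its noHF call with the mean of its probe sets (0.16, adjusted p = 0.381), with the actin covariate (0.14, adjusted p = 0.541) and within the low 18S set (0.35, adjusted p = 0.138). Atf4 lost it as well within the high 18S set (0.33, adjusted p = 0.0714). Atf4 lost its call between HF and noHF mice with no filter on dim probe sets (0.35, adjusted p = 0.071), with the 18S set as a block (0.20, adjusted p = 0.116) and within the low 18S set (0.20, adjusted p = 0.249). Atf4 kept its HF call with the actin covariate (0.50, adjusted p = 0.0142). Another probe set of Atf4 gave 0.37 in HF mice and -0.08 in noHF mice against sham, and 0.44 between HF and noHF mice. The level of the ATF4 protein is set largely by translation, which the arrays do not measure.

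Asns, which makes asparagine and is a known ATF4 target, had the largest rise among the members in both comparisons with sham. For Asns the lowest, median and highest values were 6.27, 7.00 and 7.82 in HF mice and 5.96, 6.45 and 7.26 in noHF mice. Asns in sham mice 1 to 5 was 5.64, 5.42, 5.03, 4.95 and 5.75. No banded mouse of either group was as low as the highest sham mouse. It was 3.06-fold higher in HF mice (log2 change 1.61 ± 0.24 SE, adjusted p = 4.82e-05) and 2.18-fold higher in noHF mice (log2 change 1.12 ± 0.24 SE, adjusted p = 0.00391). Within the low 18S set the changes were 1.62 and 0.84, the second with an adjusted p of 0.201. With the actin covariate the noHF change was 1.81 (adjusted p = 0.000919). Its probe set is of a kind (x) that can share probes with similar transcripts.

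Ppp1r15a (GADD34), the phosphatase subunit that reverses eIF2α phosphorylation, rose as well. Ppp1r15a signal spanned 8.31 to 9.32 in HF mice around a median of 8.51 and 8.03 to 8.54 in noHF mice around 8.30, while sham mice 1 to 5 gave 7.59, 7.21, 7.46, 7.77 and 8.19. The HF values lay above all sham values, and the noHF values overlapped only the highest sham value. It was 2.03-fold higher in HF mice (log2 change 1.02 ± 0.17 SE, adjusted p = 0.000171) and 1.58-fold higher in noHF mice (log2 change 0.66 ± 0.17 SE, adjusted p = 0.0144), a call that was lost without sham mouse 2 (adjusted p = 0.0534). Ppp1r15a lost its noHF call with the actin covariate (0.35, adjusted p = 0.346) and within the low 18S set (0.43, adjusted p = 0.388).

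Trib3, a pseudokinase induced by ATF4 and CHOP, was dim, with 1 sham value below the filter of 4. Trib3 signal lay between 4.67 and 5.76 in HF mice (median 5.24) and between 4.79 and 5.85 in noHF mice (median 4.97), against 3.82, 4.68, 4.70, 4.65 and 4.20 in sham mice 1 to 5. All noHF values exceeded all sham values, and the lowest HF value did not. It rose in HF mice (log2 change 0.77 ± 0.20 SE, adjusted p = 0.00505) and noHF mice (log2 change 0.69 ± 0.20 SE, adjusted p = 0.0236), and the noHF call was lost without sham mouse 1 or 5 (highest adjusted p = 0.0789). Trib3 lost its noHF call with no filter on dim probe sets (0.69, adjusted p = 0.0527), with the actin covariate (0.43, adjusted p = 0.33) and within the low 18S set (0.57, adjusted p = 0.217). Trib3 lost it as well within the high 18S set (0.84, adjusted p = 0.151). Trib3 lost its HF call with the actin covariate (0.52, adjusted p = 0.183). Ddit3 encodes CHOP, a transcription factor linked to cell death under lasting stress. Ddit3 signal ran from 8.51 over a median of 8.83 up to 9.05 in HF mice and from 8.22 over 8.57 up to 8.79 in noHF mice. Ddit3 in sham mice 1 to 5 was 8.13, 8.35, 8.63, 8.32 and 7.97. HF values overlapped that of sham mouse 3 alone. It rose in HF mice (log2 change 0.51 ± 0.11 SE, adjusted p = 0.00155), and with the mean of its probe sets in place of the brightest 1 that call was lost (0.25, adjusted p = 0.0603). In noHF mice it was not called (log2 change 0.26 ± 0.11 SE, adjusted p = 0.122), except without sham mouse 3 (0.35, adjusted p = 0.0422).

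Chac1, which degrades glutathione and is a known target of ATF4 and CHOP, did not follow the others. For Chac1 the lowest, median and highest values were 6.75, 7.13 and 9.57 in HF mice and 6.04, 7.19 and 8.14 in noHF mice. Chac1 in sham mice 1 to 5 was 6.30, 6.71, 7.00, 8.94 and 7.88. HF mouse 5 stood far above its group, sham mouse 4 was the highest sham mouse, and the ranges overlapped throughout. Its log2 change was 0.10 ± 0.50 (SE, adjusted p = 0.898) in HF mice and -0.20 ± 0.50 (SE, adjusted p = 0.822) in noHF mice, and Chac1 had the largest pooled spread within groups of all members (SD 0.918). Averaged over the 6 genes and centred on the sham mean, the ATF4 arm stood at 0.49 to 1.22 in HF mice and 0.31 to 0.62 in noHF mice, without overlap with the -0.28 to 0.30 of sham mice. HF mouse 5 had the highest value of its group in 4 of the 6 genes and the lowest in the other 2, Asns and Ddit3.

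**Figure D2:**
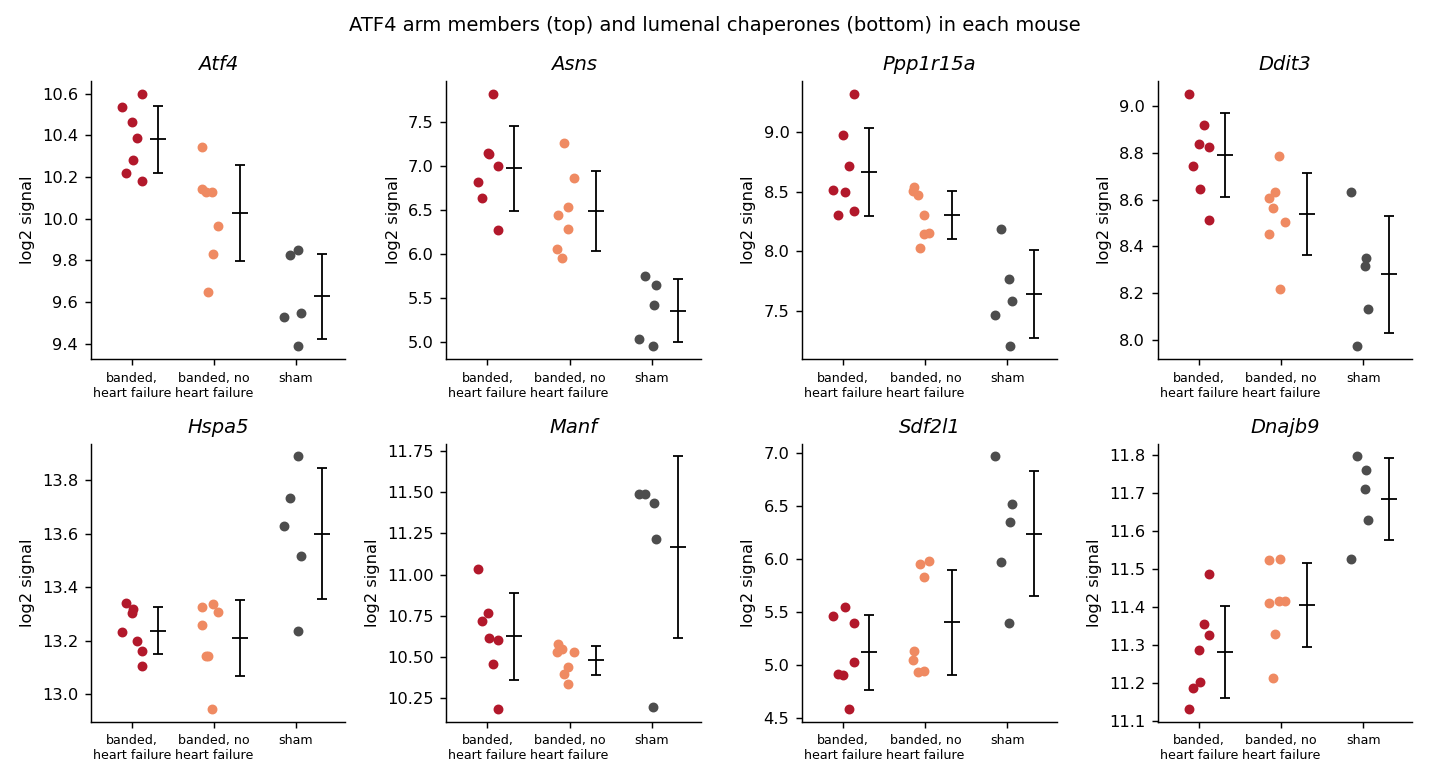
Log2 signal (y axis) of each mouse for 4 genes of the ATF4 arm (top) and 4 lumenal chaperones or cofactors (bottom), in HF (n = 7), noHF (n = 7) and sham mice (n = 5); bars are mean ± SD. The HF values of Atf4, Asns and Ppp1r15a lie above all sham values, and 1 sham mouse lies far below the others for Manf.

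A list of 32 other ATF4 targets and integrated stress response genes that are no members was described in the same fit. Of its 27 tested genes 12 rose and 3 fell in HF mice and 9 rose and 2 fell in noHF mice against sham. The median log2 change was 0.34 and 0.16, and between HF and noHF mice 2 rose and 1 fell. Against sham 55.6% and 40.7% of the list were called, beside 39.3% and 17.4% of all genes. Mthfd2, a mitochondrial enzyme of folate metabolism, averaged 8.60 ± 0.461 in HF mice, 7.89 ± 0.228 in noHF mice and 6.37 ± 0.25 in sham mice (SD, n = 7, 7 and 5). It rose in HF mice (log2 change 2.23 ± 0.19 SE, adjusted p = 8.38e-08), in noHF mice (log2 change 1.52 ± 0.19 SE, adjusted p = 3.27e-05) and in HF against noHF mice (log2 change 0.72 ± 0.17 SE, adjusted p = 0.0146). Nupr1, a stress-induced chromatin protein, rose in HF mice against sham (log2 change 2.14 ± 0.28 SE, adjusted p = 8.52e-06) and against noHF mice (log2 change 1.34 ± 0.25 SE, adjusted p = 0.00447); against sham it narrowly missed the threshold in noHF mice (log2 change 0.80 ± 0.28 SE, adjusted p = 0.0508). Slc7a5, a transporter of large neutral amino acids, rose in HF (log2 change 1.71 ± 0.14 SE, adjusted p = 5.82e-08) and noHF mice (log2 change 1.57 ± 0.14 SE, adjusted p = 9.21e-07). Against the trend, Aldh1l2, another mitochondrial folate enzyme, fell in HF (log2 change -1.09 ± 0.27 SE, adjusted p = 0.00412) and noHF mice (log2 change -1.01 ± 0.27 SE, adjusted p = 0.0161), as did Gpt2, the mitochondrial alanine transaminase, in HF (log2 change -1.004 ± 0.10 SE, adjusted p = 6.02e-07) and noHF mice (log2 change -0.57 ± 0.10 SE, adjusted p = 0.000871). In their promoter windows, 7 of 24 genes of this list held the ATF4 core (29.2%).

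**Figure D3:**
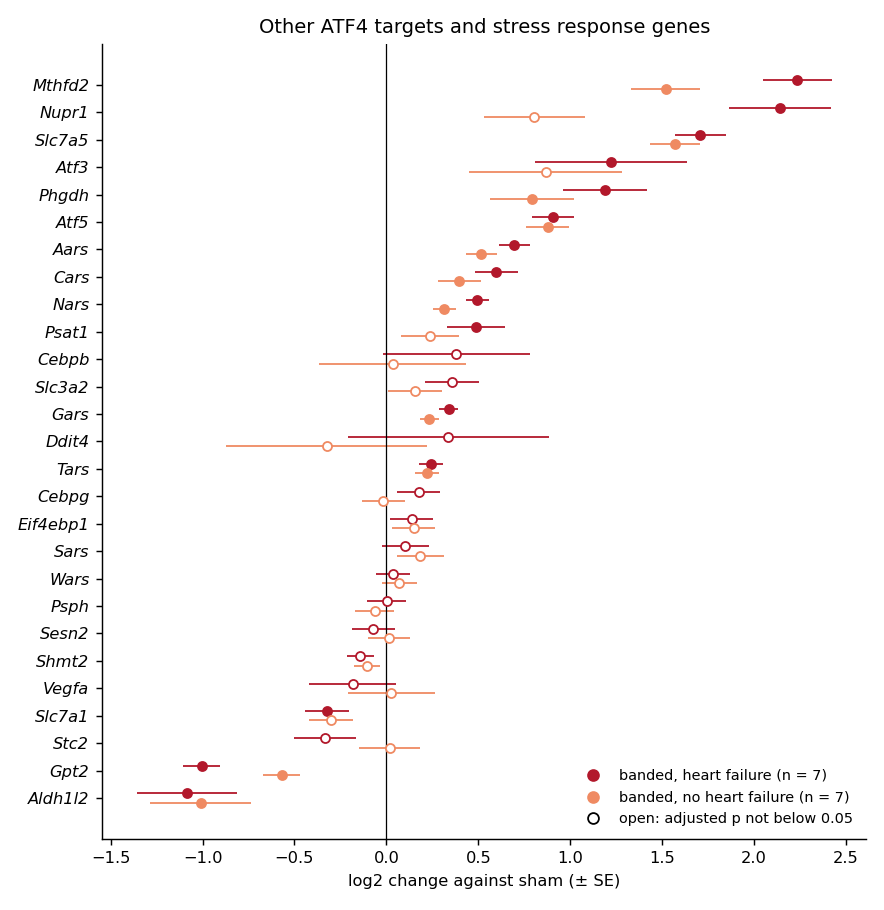
Log2 change against sham (x axis, ± SE) of the 27 tested genes of the list of other ATF4 targets, in HF (dark red, n = 7) and noHF mice (orange, n = 7); filled points passed an adjusted p of 0.05. Mthfd2, Nupr1 and Slc7a5 stand at the top, and Gpt2 and Aldh1l2 at the bottom.

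In the lumenal folding arm, of 15 members 2 rose and 5 fell in HF mice against sham, and 0 rose and 6 fell in noHF mice. The median log2 change was -0.19 and -0.22, and 0 of 15 were called between HF and noHF mice. Of all genes 39.3% and 17.4% were called against sham, beside 46.7% and 40% of this arm. Its sham group held a mouse that stood apart. Sham mouse 4 had the lowest sham value in 13 of the 15 genes, and its mean over them was -0.42 on the scale centred on the sham mean, against 0.21 in the highest sham mouse. Without sham mouse 4 the counts were 2 rising and 7 falling in HF mice and 0 rising and 9 falling in noHF mice. Among HF mice, mouse 5 had the lowest value in 8 of the 15 genes, and without it the counts were 2 rising and 5 falling in HF mice and 0 rising and 7 falling in noHF mice. Within the low 18S set, where sham mice 4 and 5 are the sham group, they were 1 rising and 1 falling in HF mice, and 0 and 0 in noHF mice, with medians of 0.01 and -0.17. With the actin difference as a covariate they were 1 and 1 in HF mice and 1 and 1 in noHF mice. Over all genes 1462 rose and 1208 fell in HF mice, and 210 and 133 in noHF mice, within the low 18S set. With the actin covariate 1598 and 1107 did in HF mice, and 844 and 355 in noHF mice. Without sham mouse 4 it was 2198 and 2190 of all genes in HF mice, and 1286 and 914 in noHF mice. Without HF mouse 5 it was 2249 and 2027 in HF mice, and 1315 and 811 in noHF mice. With all mice it was 2193 and 2027 in HF mice, and 1164 and 701 in noHF mice.

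**Figure D4:**
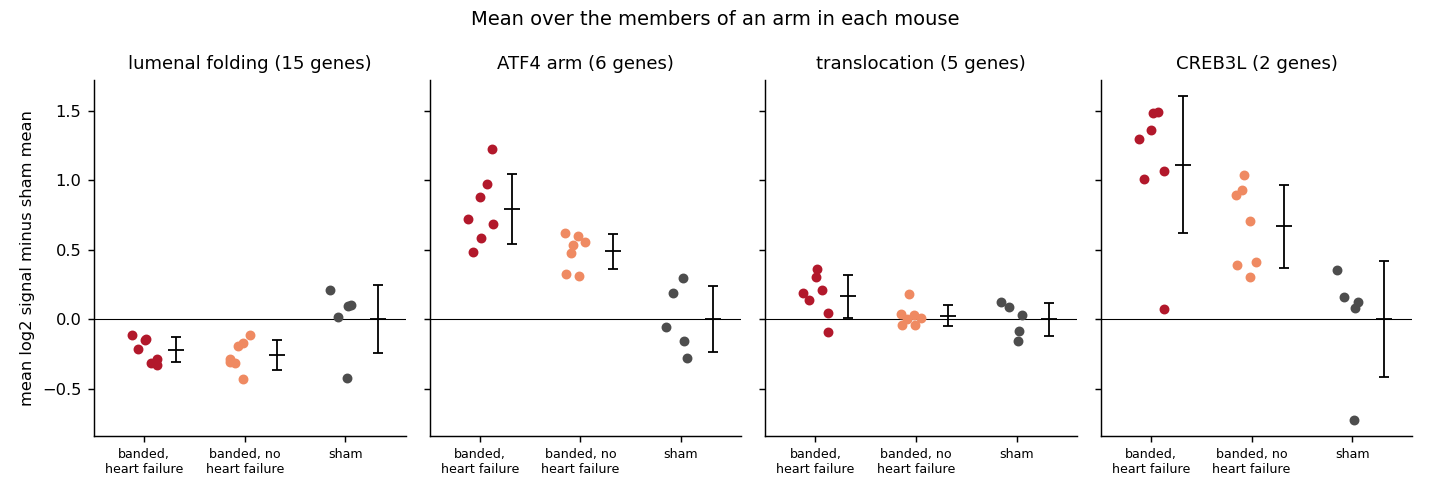
Mean log2 signal over the members of an arm, minus the sham mean (y axis), for each mouse in HF (n = 7), noHF (n = 7) and sham groups (n = 5); bars are mean ± SD. The ATF4 arm of every banded mouse lies above every sham mouse, with noHF mouse 5 (0.313) only just above sham mouse 4 (0.299). In the folding arm sham mouse 4, at -0.42, lies among the banded mice.

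Hspa5 (BiP), the lumen's main HSP70 chaperone and a usual marker of ER stress, fell in both banded groups. Hspa5 signal spanned 13.11 to 13.34 in HF mice around a median of 13.23 and 12.94 to 13.34 in noHF mice around 13.26, while sham mice 1 to 5 gave 13.52, 13.89, 13.63, 13.24 and 13.73. Sham mouse 4 was the only sham mouse inside the banded range. The fit gave a log2 change of -0.36 ± 0.09 (SE, adjusted p = 0.00491) in HF mice and -0.39 ± 0.09 (SE, adjusted p = 0.00769) in noHF mice; within the low 18S set it was -0.25 (adjusted p = 0.171) and -0.32 (adjusted p = 0.223). Hspa5 also lost its HF call with the actin covariate (-0.23, adjusted p = 0.201). Hspa5 also lost its noHF call with the actin covariate (-0.26, adjusted p = 0.2) and within the high 18S set (-0.42, adjusted p = 0.057). Hsp90b1 (GRP94) was not called. Hsp90b1 signal lay between 12.56 and 13.02 in HF mice (median 12.93) and between 12.57 and 12.95 in noHF mice (median 12.69), against 12.92, 13.08, 12.87, 12.82 and 13.09 in sham mice 1 to 5. The 3 groups overlapped, with log2 changes of -0.06 ± 0.09 (SE, adjusted p = 0.61) in HF mice and -0.22 ± 0.09 (SE, adjusted p = 0.0896) in noHF mice; the noHF fall was called without noHF mouse 2 (-0.25, adjusted p = 0.0491) or HF mouse 5 (-0.22, adjusted p = 0.0417).

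Sdf2l1, a cofactor of BiP, had the largest fall. Sdf2l1 signal ran from 4.59 over a median of 5.03 up to 5.55 in HF mice and from 4.93 over 5.13 up to 5.98 in noHF mice. Sdf2l1 in sham mice 1 to 5 was 6.52, 6.35, 6.97, 5.40 and 5.97. Only sham mouse 4 lay inside the HF range. It was 2.17-fold lower in HF mice (log2 change -1.12 ± 0.26 SE, adjusted p = 0.00228) and 1.79-fold lower in noHF mice (log2 change -0.84 ± 0.26 SE, adjusted p = 0.0335), the second call being lost without noHF mouse 1, 2, 3 or 4 or sham mouse 1, 2 or 3 (highest adjusted p = 0.100). Within the low 18S set the changes were -0.56 and -0.67, neither called. Sdf2l1 also lost its HF call with the actin covariate (-0.77, adjusted p = 0.125). Sdf2l1 kept it with the 18S set as a block (-0.57, adjusted p = 0.0209). Sdf2l1 also lost its noHF call with no filter on dim probe sets (-0.84, adjusted p = 0.0741) and with the actin covariate (-0.48, adjusted p = 0.403). Manf, a secreted ER stress protein that binds BiP, fell in HF (log2 change -0.54 ± 0.18 SE, adjusted p = 0.0232) and noHF mice (log2 change -0.68 ± 0.18 SE, adjusted p = 0.0138). For Manf the lowest, median and highest values were 10.19, 10.61 and 11.04 in HF mice and 10.34, 10.53 and 10.58 in noHF mice. Manf in sham mice 1 to 5 was 11.22, 11.43, 11.49, 10.20 and 11.49. Sham mouse 4 lay more than 1 unit below the other sham mice, and without it the changes were -0.78 and -0.93. The HF call was lost without sham mouse 2, 3 or 5 (highest adjusted p = 0.0691), and within the low 18S set the changes were -0.22 and -0.34, neither called. Manf also lost its HF call with no filter on dim probe sets (-0.54, adjusted p = 0.0501), with the 18S set as a block (-0.42, adjusted p = 0.128) and with the actin covariate (-0.42, adjusted p = 0.249). Manf also lost its noHF call with the actin covariate (-0.57, adjusted p = 0.163).

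Dnajb9 (ERdj4), a J-domain cofactor of BiP and a known XBP1 target, was the folding member whose fall kept its call in HF mice under all 28 alternatives. Dnajb9 signal spanned 11.13 to 11.49 in HF mice around a median of 11.29 and 11.21 to 11.53 in noHF mice around 11.42, while sham mice 1 to 5 gave 11.63, 11.76, 11.53, 11.71 and 11.80. All HF values lay below all sham values. The log2 change was -0.40 ± 0.07 (SE, adjusted p = 0.000226) in HF mice and -0.28 ± 0.07 (SE, adjusted p = 0.0112) in noHF mice, and -0.47 in HF mice within the low 18S set (adjusted p = 0.00474). Dnajb9 lost its noHF call with the actin covariate (-0.31, adjusted p = 0.0545), within the low 18S set (-0.36, adjusted p = 0.0863) and within the high 18S set (-0.21, adjusted p = 0.145). Hyou1, the lumenal HSP110 that exchanges nucleotide on BiP, fell in HF mice. Hyou1 signal lay between 5.71 and 6.66 in HF mice (median 6.51) and between 6.21 and 6.90 in noHF mice (median 6.46), against 7.35, 7.23, 7.42, 6.41 and 6.91 in sham mice 1 to 5. The banded ranges reached sham mouse 4. Its log2 change was -0.68 ± 0.18 (SE, adjusted p = 0.00649) in HF mice and -0.50 ± 0.18 (SE, adjusted p = 0.0628) in noHF mice, and -0.27 in HF mice within the low 18S set (adjusted p = 0.361). Hyou1 also lost its HF call with the 18S set as a block (-0.34, adjusted p = 0.0921) and with the actin covariate (-0.33, adjusted p = 0.337). In noHF mice it was called without sham mouse 4 (-0.67, adjusted p = 0.00995), noHF mouse 5 (-0.56, adjusted p = 0.046) or HF mouse 6 (-0.50, adjusted p = 0.0363), and with the arrays quantile normalized again (-0.57, adjusted p = 0.0353), with equal array medians (-0.55, adjusted p = 0.0407), with the 18S set as a block (-0.41, adjusted p = 0.0358), with the animal ID series as a block (-0.43, adjusted p = 0.0402) and within the high 18S set (-0.50, adjusted p = 0.0183).

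The lectin cycle was divided. Calr (calreticulin), which also buffers lumenal calcium, rose in HF mice, although it carries the same kind of element as Hspa5. Calr signal ran from 12.92 over a median of 13.20 up to 13.41 in HF mice and from 12.89 over 13.14 up to 13.27 in noHF mice. Calr in sham mice 1 to 5 was 12.70, 12.63, 12.66, 12.93 and 13.21. Sham mice 4 and 5 lay inside both banded ranges. The fit gave a log2 change of 0.37 ± 0.10 (SE, adjusted p = 0.00902) in HF and 0.27 ± 0.10 (SE, adjusted p = 0.0863) in noHF mice; within the low 18S set it was 0.13 in HF mice (adjusted p = 0.539), and in noHF mice the call was gained without sham mouse 5 (0.36, adjusted p = 0.015) and within the high 18S set (0.45, adjusted p = 0.0109). Calr also lost its HF call with the 18S set as a block (0.29, adjusted p = 0.0689) and with the actin covariate (0.35, adjusted p = 0.102). Canx (calnexin), its membrane-bound counterpart, fell in noHF mice (log2 change -0.36 ± 0.09 SE, adjusted p = 0.0112) and missed the threshold in HF mice (log2 change -0.22 ± 0.09 SE, adjusted p = 0.07). For Canx the lowest, median and highest values were 12.21, 12.36 and 12.46 in HF mice and 11.88, 12.25 and 12.49 in noHF mice. Canx in sham mice 1 to 5 was 12.55, 12.61, 12.59, 12.40 and 12.68. Banded and sham values overlapped, and the HF fall was called without sham mouse 4 (-0.26, adjusted p = 0.0426) or noHF mouse 7 (-0.22, adjusted p = 0.0431), and with the mean of its probe sets (-0.28, adjusted p = 0.0036), with the arrays quantile normalized again (-0.24, adjusted p = 0.041), with equal array medians (-0.28, adjusted p = 0.0232), with the 18S set as a block (-0.34, adjusted p = 0.00848) and with the animal ID series as a block (-0.26, adjusted p = 0.0254). Canx lost its noHF call within the low 18S set (-0.17, adjusted p = 0.369). Canx kept it within the high 18S set (-0.60, adjusted p = 0.00976). Uggt1, which tags misfolded glycoproteins for another round with these lectins, rose in HF mice under all 28 alternatives run. Uggt1 signal spanned 8.20 to 8.51 in HF mice around a median of 8.32 and 8.03 to 8.38 in noHF mice around 8.24, while sham mice 1 to 5 gave 8.14, 7.97, 8.23, 7.60 and 8.06. HF values overlapped those of sham mouse 3 alone. The log2 change was 0.31 ± 0.09 (SE, adjusted p = 0.0113) in HF and 0.23 ± 0.09 (SE, adjusted p = 0.0868) in noHF mice, and 0.48 in HF mice within the low 18S set; in noHF mice it was called without sham mouse 3 (0.29, adjusted p = 0.0443), and with the mean of its probe sets (0.23, adjusted p = 0.037), with the 18S set as a block (0.27, adjusted p = 0.0228) and with the actin covariate (0.38, adjusted p = 0.0476).

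Dnajc3 (p58IPK), a BiP cofactor that inhibits PERK, was lower in noHF mice by its brightest probe set. Dnajc3 signal lay between 9.71 and 9.87 in HF mice (median 9.83) and between 9.42 and 9.78 in noHF mice (median 9.53), against 10.18, 10.02, 10.19, 9.71 and 9.89 in sham mice 1 to 5. The noHF values overlapped sham mouse 4 alone. Its log2 change was -0.19 ± 0.09 (SE, adjusted p = 0.0862) in HF mice and -0.43 ± 0.09 (SE, adjusted p = 0.00236) in noHF mice. Its other probe sets gave 0.04, 0.07, 0.87 and -0.18 in HF mice and -0.19, -0.28, 0.31 and -0.32 in noHF mice. The HF direction is therefore uncertain, and in noHF mice the set at 0.31 went against the rest. Between HF and noHF mice these sets gave 0.23, 0.35, 0.56 and 0.14. The brightest set was called in HF mice without sham mouse 4 (-0.26, adjusted p = 0.0149), and with the arrays quantile normalized again (-0.22, adjusted p = 0.0493) and with equal array medians (-0.26, adjusted p = 0.0248). Dnajc3 lost its noHF call with the mean of its probe sets (-0.18, adjusted p = 0.171), with the actin covariate (-0.32, adjusted p = 0.0899) and within the low 18S set (-0.23, adjusted p = 0.23). Between HF and noHF mice Dnajc3 was called without sham mouse 4 (0.24, adjusted p = 0.0369) or noHF mouse 4 (0.27, adjusted p = 0.0432) or 6 (0.27, adjusted p = 0.0483), and with the mean of its probe sets (0.30, adjusted p = 0.0252), with the 18S set as a block (0.30, adjusted p = 0.0302) and with the animal ID series as a block (0.25, adjusted p = 0.0413), and not in the fit of all mice without those terms (log2 change 0.24 ± 0.08 SE, adjusted p = 0.0629). Creld2, an ER stress gene with disulfide isomerase activity, was not called. Creld2 signal ran from 9.04 over a median of 9.19 up to 9.40 in HF mice and from 8.87 over 9.03 up to 9.17 in noHF mice. Creld2 in sham mice 1 to 5 was 9.53, 9.35, 9.40, 8.72 and 9.21. Sham mouse 4 was the lowest of all mice, and without it the noHF change of -0.20 became -0.33 (adjusted p = 0.00828); it was also called within the high 18S set (-0.33, adjusted p = 0.033). Pdia4, a disulfide isomerase, varied most among the folding members (pooled SD 0.680). For Pdia4 the lowest, median and highest values were 6.25, 6.55 and 6.75 in HF mice and 5.97, 6.42 and 7.90 in noHF mice. Pdia4 in sham mice 1 to 5 was 7.59, 7.28, 8.13, 5.82 and 6.41. Pdia4 signal followed the 18S sets: noHF mice 5 to 7, of the high set, had 7.55, 7.66 and 7.90, and noHF mice 1 to 4 had 5.97 to 6.42. Sham mice 1 to 3 are of the high set, and sham mice 4 and 5 and all HF mice of the low set. The cause of this split was not tested. Its ranges overlapped, with log2 changes of -0.54 ± 0.37 (SE, adjusted p = 0.261) in HF mice and -0.17 ± 0.37 (SE, adjusted p = 0.792) in noHF mice. Pdia3, Pdia6 and the J-domain protein gene Dnajb11 were called in no comparison with all mice; their log2 changes against sham were -0.03, 0.10 and 0.09 in HF mice and -0.17, -0.21 and 0.07 in noHF mice. Without sham mouse 4 Pdia3 was called in noHF mice (-0.32, adjusted p = 0.0139), and without HF mouse 5 Pdia6 was called between HF and noHF mice (0.39, adjusted p = 0.0127). Pdia3 and Pdia6 were also called in noHF mice within the high 18S set (-0.35, adjusted p = 0.0436, and -0.35, adjusted p = 0.0279).

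**Figure D5:**
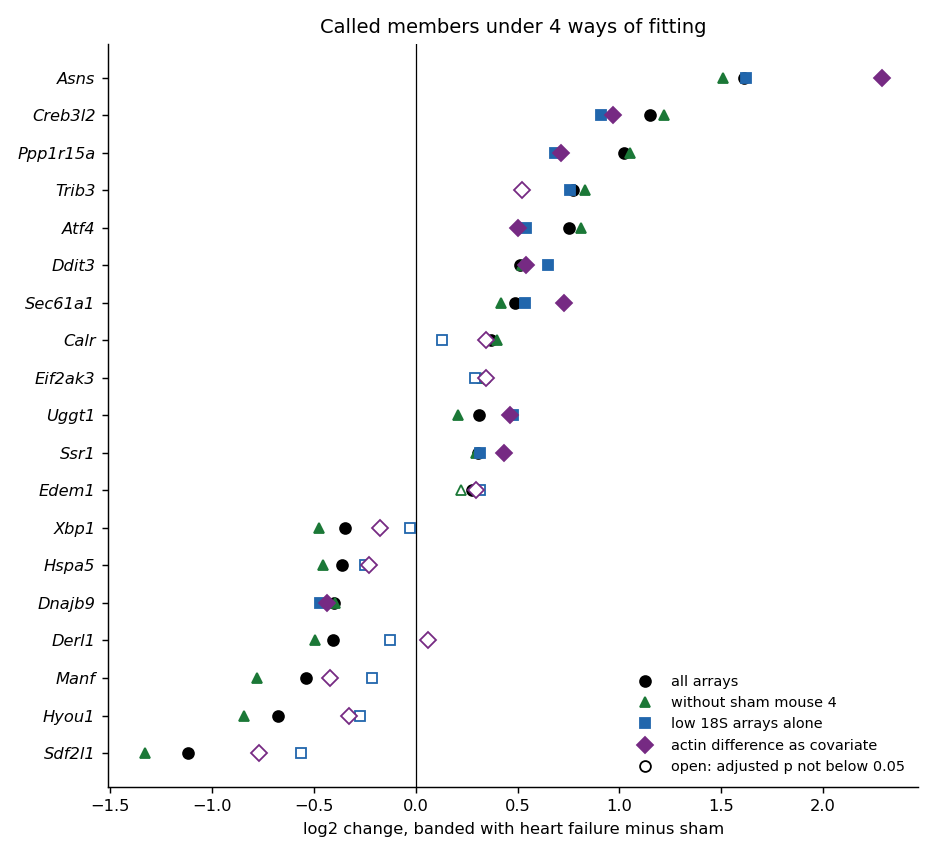
Log2 change between HF and sham mice (x axis) of the 19 called members under 4 fits: all arrays, all but sham mouse 4, the low 18S arrays alone (7 HF and 2 sham) and the actin difference as a covariate; filled points passed an adjusted p of 0.05. Asns, Creb3l2, Atf4, Ppp1r15a, Ddit3, Sec61a1, Uggt1, Ssr1 and Dnajb9 are filled in all 4, and Hspa5, Manf, Hyou1, Sdf2l1 and Xbp1 move towards 0 in the low 18S arrays.

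Of 28 tested genes of the list of other lumenal folding enzymes and cofactors, 9 rose and 5 fell in HF mice against sham. In noHF mice 2 rose and 3 fell against sham, and 0 were called between HF and noHF mice. Of all genes 39.3% and 17.4% were called against sham, beside 50% and 17.9% of this list. Those with the largest rise in HF mice were Kdelr3, a receptor that returns escaped chaperones to the ER (log2 change 0.90 ± 0.29 SE, adjusted p = 0.0191), and Txndc5, a disulfide isomerase (log2 change 0.78 ± 0.16 SE, adjusted p = 0.000691). The largest falls were in Tmx1, a membrane-bound thioredoxin-like protein (log2 change -0.69 ± 0.09 SE, adjusted p = 1.65e-05), and Fkbp2, a prolyl isomerase (log2 change -0.49 ± 0.18 SE, adjusted p = 0.0374). Tmx1 also fell in noHF mice (log2 change -0.86 ± 0.09 SE, adjusted p = 1.03e-05).

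Among the sensors 1 rose and 1 fell in each comparison with sham. This is 50% of the 4, beside 39.3% of all genes called in HF mice and 17.4% in noHF mice. Xbp1 fell in both groups by nearly the same amount (log2 change -0.35 ± 0.11 SE, adjusted p = 0.0217 in HF mice, and log2 change -0.35 ± 0.11 SE, adjusted p = 0.044 in noHF mice). Xbp1 signal spanned 11.25 to 11.50 in HF mice around a median of 11.39 and 11.21 to 11.63 in noHF mice around 11.34, while sham mice 1 to 5 gave 11.83, 11.90, 12.07, 11.21 and 11.60. Sham mice 1 to 3 lay above all banded mice, and sham mouse 4 was as low as the lowest banded mouse. The HF call was lost without sham mouse 1, 2 or 3 (highest adjusted p = 0.0772) and the noHF call in 13 of 19 fits that left out 1 mouse; within the low 18S set the changes were -0.03 and -0.14, neither called. Xbp1 also lost its HF call with the 18S set as a block (-0.12, adjusted p = 0.299) and with the actin covariate (-0.18, adjusted p = 0.438). Xbp1 also lost its noHF call with no filter on dim probe sets (-0.35, adjusted p = 0.0803), with the mean of its probe sets (-0.26, adjusted p = 0.1) and with the actin covariate (-0.17, adjusted p = 0.506). The deposited values do not separate the spliced from the unspliced transcript. Eif2ak3 (PERK) rose in HF mice. Eif2ak3 signal lay between 6.79 and 7.21 in HF mice (median 7.11) and between 6.32 and 6.92 in noHF mice (median 6.86), against 6.75, 6.52, 6.76, 6.64 and 6.86 in sham mice 1 to 5. The lowest HF value lay below that of sham mouse 5, and noHF mouse 5 lay far below its group. The fit gave a log2 change of 0.34 ± 0.10 (SE, adjusted p = 0.0122) in HF and 0.07 ± 0.10 (SE, adjusted p = 0.681) in noHF mice, and 0.29 in HF mice within the low 18S set (adjusted p = 0.0683). Eif2ak3 also lost its HF call with the arrays quantile normalized again (0.23, adjusted p = 0.071), with the 18S set as a block (0.24, adjusted p = 0.103) and with the actin covariate (0.34, adjusted p = 0.0918). Between HF and noHF mice it was called without HF mouse 3 (0.31, adjusted p = 0.0383) and not with all mice (log2 change 0.27 ± 0.09 SE, adjusted p = 0.0679).

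Ern1 (IRE1) rose in noHF mice (log2 change 0.29 ± 0.08 SE, adjusted p = 0.0229) but was not called in HF mice (log2 change 0.08 ± 0.08 SE, adjusted p = 0.436), and the difference between HF and noHF mice did not pass the test either (log2 change -0.20 ± 0.08 SE, adjusted p = 0.0964). Ern1 signal ran from 8.38 over a median of 8.71 up to 8.87 in HF mice and from 8.68 over 8.90 up to 9.06 in noHF mice. Ern1 in sham mice 1 to 5 was 8.58, 8.51, 8.47, 8.76 and 8.66. The noHF range overlapped sham mouse 4, and the call was lost without sham mouse 2 or 3 (highest adjusted p = 0.0649). Ern1 lost its noHF call with equal array medians (0.24, adjusted p = 0.0508), with the actin covariate (0.36, adjusted p = 0.0557) and within the low 18S set (0.10, adjusted p = 0.704). Ern1 kept it within the high 18S set (0.45, adjusted p = 0.0157). Atf6 was not called. For Atf6 the lowest, median and highest values were 10.83, 10.99 and 11.24 in HF mice and 10.95, 11.15 and 11.32 in noHF mice. Atf6 in sham mice 1 to 5 was 11.04, 11.25, 11.09, 10.80 and 10.94. Its groups overlapped, with log2 changes of -0.01 ± 0.09 (SE, adjusted p = 0.948) in HF and 0.15 ± 0.09 (SE, adjusted p = 0.258) in noHF mice. Of 15 other sensors and regulators 7 rose and 0 fell in HF mice, and 3 rose and 0 fell in noHF mice. The called share was 46.7% and 20%, beside 39.3% and 17.4% of all genes. Between HF and noHF mice 1 of the 15 rose. The last was Bcl2, an inhibitor of apoptosis, which averaged 9.31 ± 0.14 in HF mice, 8.65 ± 0.395 in noHF mice and 7.52 ± 0.379 in sham mice (SD, n = 7, 7 and 5) (log2 change 1.79 ± 0.18 SE, adjusted p = 5.11e-07 in HF mice against sham and log2 change 0.66 ± 0.16 SE, adjusted p = 0.0162 against noHF mice). Bak1, a promoter of apoptosis at mitochondria, rose in HF (log2 change 0.51 ± 0.16 SE, adjusted p = 0.0185) and noHF mice (log2 change 0.51 ± 0.16 SE, adjusted p = 0.0373).

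In the degradation arm 1 of 6 tested members rose and 1 fell in HF mice, and 0 were called in the other comparisons. The called share in HF mice was 33.3%, below the 39.3% of all genes. Edem1, a lectin that hands misfolded glycoproteins to degradation, rose in HF mice (log2 change 0.27 ± 0.10 SE, adjusted p = 0.0324). Edem1 signal spanned 7.66 to 8.12 in HF mice around a median of 7.88 and 7.47 to 7.72 in noHF mice around 7.64, while sham mice 1 to 5 gave 7.63, 7.35, 7.88, 7.39 and 7.72. The ranges overlapped, and the call was lost without HF mouse 1, 4 or 7 or sham mouse 1, 2 or 4 (highest adjusted p = 0.109). Edem1 lost its HF call with no filter on dim probe sets (0.27, adjusted p = 0.0542), with the arrays quantile normalized again (0.20, adjusted p = 0.0981) and with equal array medians (0.21, adjusted p = 0.0864). Edem1 lost it as well with the 18S set as a block (0.27, adjusted p = 0.084), with the actin covariate (0.30, adjusted p = 0.134) and within the low 18S set (0.31, adjusted p = 0.093). Edem1 kept it with the mean of its probe sets (0.49, adjusted p = 0.000438). Between HF and noHF mice it was called with the mean of its probe sets (0.30, adjusted p = 0.0312). Derl1, part of the channel that moves substrates out of the ER, was lower in HF mice by its brightest probe set (log2 change -0.41 ± 0.15 SE, adjusted p = 0.0388). Its other probe sets gave 0.31, -0.06 and -0.17, so its direction is uncertain. Derl1 signal lay between 10.20 and 10.79 in HF mice (median 10.51) and between 10.13 and 11.04 in noHF mice (median 10.61), against 11.15, 11.02, 11.09, 10.55 and 10.70 in sham mice 1 to 5. The ranges overlapped, and the call was lost without HF mouse 3, 4, 5, 6 or 7 or sham mouse 1, 2 or 3 (highest adjusted p = 0.107). Derl1 lost its HF call with no filter on dim probe sets (-0.41, adjusted p = 0.0771), with the mean of its probe sets (-0.08, adjusted p = 0.243) and with the 18S set as a block (-0.09, adjusted p = 0.533). Derl1 lost it as well with the actin covariate (0.06, adjusted p = 0.803) and within the low 18S set (-0.13, adjusted p = 0.553). Derl1 kept it with the animal ID series as a block (-0.26, adjusted p = 0.0239). Herpud1, an ER membrane protein induced by both the XBP1 or ATF6 and the ATF4 branches, was not called in the fit of all mice by group. Herpud1 signal ran from 10.88 over a median of 10.99 up to 12.96 in HF mice and from 11.03 over 11.23 up to 11.70 in noHF mice. Herpud1 in sham mice 1 to 5 was 11.07, 11.37, 11.30, 12.25 and 11.89. HF mouse 5 lay above every other mouse. The log2 change was -0.28 ± 0.30 (SE, adjusted p = 0.479) in HF mice with it and -0.56 (adjusted p = 0.021) without it. With the actin covariate and all mice Herpud1 was called in HF mice (-1.16, adjusted p = 0.0117) and in noHF mice (-1.17, adjusted p = 0.0246). The ligase Syvn1 (HRD1), its partner Sel1l and Derl2 were not called, at 0.21, -0.11 and -0.12 in HF and 0.15, -0.04 and -0.07 in noHF mice. Other probe sets of Sel1l gave 0.22, -0.17, 0.37 and 0.04 in HF mice against sham, so the direction of Sel1l there is uncertain. Derl2 was called in HF mice with equal array medians (-0.19, adjusted p = 0.0204). Without sham mouse 5, Syvn1 was called in HF (0.36, adjusted p = 0.00356) and noHF mice (0.30, adjusted p = 0.0255). Among 17 other degradation genes 7 rose and 1 fell in HF mice and 2 rose in noHF mice. Those called made up 47.1% and 11.8% of that list, beside 39.3% and 17.4% of all genes. Man1b1, which trims mannose from misfolded glycoproteins, rose in both (log2 changes 0.51 and 0.69). Ube2g2, a ubiquitin-conjugating enzyme, rose in HF mice (0.44) and the ligase Rnf5 fell there (-0.28).

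At the translocation channel, through which nascent secreted proteins enter the ER, 2 of 5 members rose in HF mice and 0 in noHF mice against sham. The called share was 40% and 0%, beside 39.3% and 17.4% of all genes. Between HF and noHF mice 1 member rose. Sec61a1, the pore subunit, was that gene. For Sec61a1 the lowest, median and highest values were 10.03, 10.28 and 10.58 in HF mice and 9.69, 9.91 and 10.16 in noHF mice. Sec61a1 in sham mice 1 to 5 was 9.82, 9.76, 9.98, 9.55 and 9.995. All HF values exceeded all sham values, while noHF and sham values overlapped. Its log2 change was 0.49 ± 0.11 (SE, adjusted p = 0.0019) in HF mice against sham, 0.10 ± 0.11 (SE, adjusted p = 0.571) in noHF mice against sham and 0.39 ± 0.10 (SE, adjusted p = 0.0224) between HF and noHF mice. The last call was lost without noHF mouse 5 or HF mouse 1, 2 or 4 (highest adjusted p = 0.0581) and within the low 18S set (0.38, adjusted p = 0.127). Other probe sets of Sec61a1 past the filter gave 0.55, 0.33, 0.08 and 0.29 in noHF mice against sham, so the noHF result depends on the probe set. They gave 0.91, 0.65, 0.57 and 0.59 in HF mice against sham, and 0.35, 0.32, 0.49 and 0.31 between HF and noHF mice. Ssr1, a subunit of the translocon-associated protein complex, rose in HF mice (log2 change 0.31 ± 0.07 SE, adjusted p = 0.00223) and was not called in noHF mice (log2 change 0.13 ± 0.07 SE, adjusted p = 0.237). Ssr1 signal spanned 9.92 to 10.35 in HF mice around a median of 10.23 and 9.83 to 10.18 in noHF mice around 10.02, while sham mice 1 to 5 gave 9.90, 9.84, 9.96, 9.86 and 9.91. All HF values but the lowest lay above all sham values, and without HF mouse 5 Ssr1 was called between HF and noHF mice (0.23, adjusted p = 0.0186), as it was with the mean of its probe sets (0.23, adjusted p = 0.0209). The other probe sets of Ssr1 gave 0.78, 0.70 and -0.13 in HF mice, and 0.37, 0.31 and -0.07 in noHF mice, against sham. Sec61b, a small subunit of the channel, was not called. Sec61b signal lay between 9.21 and 10.02 in HF mice (median 9.69) and between 9.51 and 9.97 in noHF mice (median 9.58), against 9.997, 9.70, 10.07, 9.25 and 9.61 in sham mice 1 to 5. The 3 ranges overlapped. Its log2 change was -0.04 ± 0.14 (SE, adjusted p = 0.836) in HF mice. Ssr2 and Ssr3 were not called, at -0.12 and 0.20 in HF and -0.08 and 0.05 in noHF mice; Ssr3 was called in HF mice without sham mouse 4 (0.26, adjusted p = 0.0487) or 5 (0.27, adjusted p = 0.0395). With the actin covariate Sec61a1 was at 0.73 in HF mice (adjusted p = 0.000907). HF mouse 5 had the lowest HF value in 3 of the 5 genes of the channel.

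Of 29 other genes of translocation, signal peptide cleavage and glycan transfer, 8 rose and 1 fell in HF mice against sham. In noHF mice 2 rose and 1 fell against sham, and 2 rose between HF and noHF mice. Against sham 31.0% of the list was called in HF and 10.3% in noHF mice, below the 39.3% and 17.4% of all genes. Spcs3, a signal peptidase subunit, averaged 11.07 ± 0.0977 in HF mice, 10.58 ± 0.156 in noHF mice and 10.34 ± 0.0814 in sham mice (SD, n = 7, 7 and 5), with log2 change 0.73 ± 0.07 SE, adjusted p = 7e-07 in HF mice against sham and log2 change 0.49 ± 0.07 SE, adjusted p = 0.000896 against noHF mice. Srp72 of the signal recognition particle rose in HF mice (log2 change 1.20 ± 0.44 SE, adjusted p = 0.037), with an SD of 1.1 among sham mice. Tram1, which helps chains into the membrane, rose between HF and noHF mice (log2 change 0.24 ± 0.08 SE, adjusted p = 0.0497), and Magt1, an oxidoreductase of the oligosaccharyltransferase, fell in HF mice against sham (log2 change -0.60 ± 0.09 SE, adjusted p = 4.5e-05). Among 19 COPII coat and ER export genes 3 rose and 4 fell in HF mice and 0 rose and 2 fell in noHF mice. Those called made up 36.8% and 10.5% of that list, also below the shares of all genes. The cargo receptors Tmed3 (0.44) and Surf4 (0.41) rose in HF mice, and the coat genes Sec24a (-0.37) and Sar1b (-0.36) fell.

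CREB3L factors are ER membrane proteins cleaved like ATF6, and they are known to raise secretory capacity in cells that secrete collagen. By the brightest probe sets, Creb3l2 was the member that differed most between the banded groups. Creb3l2 signal ran from 9.27 over a median of 9.75 up to 9.98 in HF mice and from 8.56 over 8.96 up to 9.48 in noHF mice. Creb3l2 in sham mice 1 to 5 was 8.48, 8.28, 8.47, 8.86 and 8.76. All HF values lay above all sham values, and the noHF values overlapped both other groups. It was 2.22-fold higher in HF than in sham mice (log2 change 1.15 ± 0.16 SE, adjusted p = 1.75e-05) and 1.65-fold higher in HF than in noHF mice (log2 change 0.72 ± 0.14 SE, adjusted p = 0.00559); noHF mice differed from sham by 0.43 (adjusted p = 0.0694), and were called without sham mouse 4 (0.50, adjusted p = 0.042), noHF mouse 5 (0.50, adjusted p = 0.0339) or 6 (0.49, adjusted p = 0.0417), or HF mouse 5 (0.43, adjusted p = 0.0483), and with the mean of its probe sets (0.57, adjusted p = 0.0127) and with the 18S set as a block (0.34, adjusted p = 0.0406). The HF against noHF call held in all 19 fits that left out 1 mouse and was lost within the low 18S set (0.49, adjusted p = 0.0791). Another probe set of Creb3l2 gave 0.998 in HF mice and 0.72 in noHF mice against sham, and 0.27 between HF and noHF mice. The size of the difference between the banded groups therefore depends on the probe set.

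Creb3l1 varied more, and its call depended on the fit. For Creb3l1 the lowest, median and highest values were 4.63, 6.36 and 6.96 in HF mice and 5.15, 6.13 and 6.92 in noHF mice. Creb3l1 in sham mice 1 to 5 was 5.51, 5.62, 5.99, 3.44 and 5.31. HF mouse 5, which was the lowest HF mouse for both CREB3L genes, and sham mouse 4 lay far below their groups, and the ranges overlapped. The fit gave a log2 change of 1.08 ± 0.43 (SE, adjusted p = 0.0512) in HF mice and 0.91 ± 0.43 (SE, adjusted p = 0.148) in noHF mice; the HF change was called without HF mouse 5 (1.35, adjusted p = 0.00832), sham mouse 3 (1.28, adjusted p = 0.0332) or noHF mouse 3 (1.08, adjusted p = 0.0468) or 7 (1.08, adjusted p = 0.0494). It was also called with eBayes set to trend and robust (1.08, adjusted p = 0.0476), with the 18S set as a block (1.66, adjusted p = 0.00651), with the animal ID series as a block (1.35, adjusted p = 0.0064), with the actin covariate (2.16, adjusted p = 0.00402) and within the low 18S set (1.88, adjusted p = 0.0297). In the fit on the mean of each gene's probe sets the adjusted p was 0.0499. Creb3l1 has 1 probe set, so its own values and its change of 1.08 were the same in that fit. The noHF change was called with the 18S set as a block (1.08, adjusted p = 0.0486), with the animal ID series as a block (1.08, adjusted p = 0.0371) and with the actin covariate (2.01, adjusted p = 0.0162). The summed fibroblast marker signal given above was higher in HF than in noHF mice and lowest in sham mice, and 16 of the 38 tested members (42.1%) had group means in that order, against 30.5% of all genes: 5 of 6 in the ATF4 arm, 3 of 5 at the channel, both CREB3L genes, 3 of 15 in the folding arm, 2 of 6 in the degradation arm and 1 of 4 sensors. The part of cell composition in these results was not tested. The defining plasma cell and B cell markers Mzb1, Jchain, Cd79a, Ms4a1, Tnfrsf17 and Pou2af1 did not pass the filter, and 0 of the 3 tested markers of that list were called.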

How the data were processed

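Gene expression was measured in 19 mice, and the authors deposited log2 values. Per the submitters' processing notes they came from GCRMA, of a version not given in the sources used here. This method draws dim probe sets to a common floor (2.19 here), and changes among values at that floor cannot be seen. Arrays have no depth, so the number of mice limits the precision. Of 45101 probe sets, 34958 have 1 gene symbol in the platform annotation, and 20497 had log2 above 4 in at least 5 arrays; the brightest probe set stood for each of 10733 genes. The 3 groups were compared in 1 fit with no term but the group (lmFit and eBayes of limma 3.58.1 in R 4.3.3), and p-values were adjusted by Benjamini-Hochberg over all genes, at a threshold of 0.05. The fit was tested on simulated data. Motifs were searched in RefSeq promoter windows with Python 3.11.15, pandas 2.3.3 and numpy 2.4.6; figures used matplotlib 3.10.9. Alternatives were no filter, the mean of a gene's probe sets, other scalings, eBayes with trend and robust, the 18S set, the animal ID series or the actin difference as terms, the low 18S set alone and each mouse left out. The high 18S set alone was added after seeing the data.

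The members, lists and tests were chosen with earlier results of these data known. By the rule for names, values of every group are given for members past the threshold in any comparison and for a set of fixed choices; of each pathway list, at most the 2 largest rises and 2 largest falls past it in a comparison are named.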

Additional observations from a re-analysis of the deposited data

Results flagged for a closer look

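Of 114 sets of 1 gene in 1 group, 9 had a mouse whose gap to its nearest group mate was large for the range of the group; about 1 in 20 sets would be picked out by chance. HF mouse 5 accounts for 4 of them. Its Herpud1 signal of 12.9602 stood above the next HF value of 11.273, and its Chac1 signal of 9.5738 above 7.67264. Its Hsp90b1 signal of 12.5573 lay below the next lowest of 12.8591, and its Creb3l1 signal of 4.63415 below 6.16821. Sham mouse 4 accounts for 2: Manf at 10.1991 lay below the next sham value of 11.2168, and Creb3l1 at 3.44185 below 5.30738. In HF mouse 6 Hyou1 was 5.70627, with the next lowest at 6.34102. In noHF mouse 5 Eif2ak3 was 6.3196, with the next lowest at 6.74211, and in noHF mouse 6 Trib3 was 5.84601, with the next highest at 5.23027. No cause was tested.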

How the results depend on the processing

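In HF mice against sham, the 19 called members became 11 with the actin difference as a covariate (9 higher, 2 lower) and 11 in the low 18S set alone (10 higher, 1 lower), and 15 to 21 when 1 mouse was left out. In noHF mice against sham, the 12 called members became 5 with the actin covariate (3 higher, 2 lower), 0 in the low 18S set alone, 13 in the high 18S set alone, and 7 to 16 with 1 mouse left out; 7 came without sham mouse 2 and 16 without sham mouse 4. Between HF and noHF mice, the 3 called members became 6 with the mean of a gene's probe sets, 0 in the low 18S set alone, and 1 to 4 with 1 mouse left out; 1 came without noHF mouse 5 or HF mouse 1, 2 or 4. With the 18S set as a block the counts were 14, 16 and 3. Calls over all genes moved as well. In HF mice against sham 1598 rose and 1107 fell with the actin covariate, and 1462 and 1208 in the low 18S set. In noHF mice against sham 844 and 355 did with the actin covariate, and 210 and 133 in the low 18S set. There it was also 1179 and 639 in the high 18S set, 731 and 454 without sham mouse 2, and 1286 and 914 without sham mouse 4. Between HF and noHF mice 66 rose and 83 fell in the low 18S set, and 456 and 601 with the mean of a gene's probe sets. With the 18S set as a block 1976 rose and 1635 fell in HF mice and 1446 and 905 in noHF mice against sham. Between HF and noHF mice that block gave 417 and 540. Without these changes the counts were 2193 and 2027, 1164 and 701, and 411 and 606. Called members that kept their call in every alternative numbered 8 of 19, 0 of 12 and 0 of 3 in these comparisons, and those that kept it in every fit without 1 mouse 15, 6 and 1. The log2 change of Derl1 in HF mice against sham was 0.0611 with the actin covariate (adjusted p = 0.803), against -0.41 without it. The low 18S set holds 2 sham mice, and beyond the fewer mice the cause was not tested. No paired analysis was possible because the labels give no replicate number; with the animal ID series, which all 3 groups share, as a block, 21, 14 and 4 members were called, and no called member lost its call. Trib3 and Creb3l1 were dim, each with 1 sham value below the filter of 4, and how the processing altered the size of their changes was not tested.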

Other observations

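Members within a complex or partnership did not all give the same call. Of the translocon-associated protein genes, Ssr1 rose in HF mice against sham (0.31) while Ssr2 (-0.12) and Ssr3 (0.20) were not called, and of the channel genes Sec61a1 rose (0.49) while Sec61b (-0.04) was not called. Derl2 had the smallest pooled spread within groups of all members (SD 0.0909). The atrial markers, which the dissection should leave out, varied widely, with a summed log2 signal over the list of 27.2 to 61.2 in HF mice, 42.0 to 58.8 in noHF mice and 35.9 to 53.7 in sham mice. Differences between members of a complex were not tested.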
